A study of Mus musculus with 36 samples.

Results

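The genes described here are 10 genes of the NRF2 antioxidant and glutathione program, followed through macrophages that were given an inflammatory stimulus, a ligand of the clock protein BMAL1, or both. They were chosen by name from the table of gene counts (Slc7a11, Gclm, Gclc, Srxn1, Txnrd1, Gsr, Hmox1, Nqo1, Osgin1 and Cat), and are 10 of its 54532 genes. Earlier results of these data were known when they were chosen. Each of the 10 was counted in all 36 libraries and passed the filter on low counts in every comparison below.

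Bone marrow-derived macrophages (BMDMs) came from female C57BL/6 mice of 13 to 17 weeks and were grown for 7 days with MCSF. KO macrophages came from LysM-Cre;Bmal1 flox/flox mice, in which Cre is driven by a promoter active in myeloid cells (n = 6 replicates). WT macrophages came from Bmal1 flox/flox littermates that lacked Cre (n = 3 replicates), so that both genotypes carry the floxed alleles. For 6 h the cells received vehicle (DMSO), 100 nM LPS (a Gram-negative cell wall component), 100 µM CCM (Core Circadian Modulator, a small molecule that binds the PASB domain of BMAL1), or LPS with CCM. The sources used here do not say whether a replicate number marks 1 mouse, so p-values measure the spread between these libraries.

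Totals were 13469262 to 28288923 counts per library. The lowest count of any member in a library was 99 (Nqo1 in KO CCM). Arntl, the gene of BMAL1, was at 8.71 ± 1.23 CPM (counts scaled to a common library size, mean ± SD) in WT vehicle and 6.70 ± 1.96 in KO vehicle libraries, a log2 difference of -0.34 ± 0.26 (SE) that did not pass the test (adjusted p = 1 in edgeR). The vehicle libraries alone therefore give no clear loss of Arntl counts. The KO mean was below the WT mean under each treatment, and the genotypes overlapped with vehicle, CCM and LPS. With LPS and CCM together they did not overlap, at 3.82 to 9.33 CPM in KO and 11.47 to 12.85 CPM in WT libraries. The genotypes were not tested against each other under that treatment, and a count over the whole gene does not measure the floxed part. Markers of macrophages (Adgre1, Csf1r, Cd68, Itgam, Mertk, Lyz2 and Fcgr1) summed to 11179 to 19983 CPM over the 36 libraries. Lyz2 is the locus into which LysM-Cre is inserted, and it was at a median of 13274 CPM in WT vehicle and 8472 CPM in KO vehicle libraries, while the other 6 macrophage markers summed to medians of 4230 and 4223 CPM there (a split by Lyz2 made after seeing the data). None of the markers of neutrophils, B cells, T cells, erythroid cells or fibroblasts was at 0 in every library.

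NRF2 (encoded by Nfe2l2) is a transcription factor that the adaptor KEAP1 holds at low levels by targeting it for degradation. Oxidants and electrophiles modify KEAP1, after which NRF2 accumulates, pairs with a small MAF protein and binds antioxidant response elements. Its target genes import cystine, make and recycle glutathione, keep thioredoxin reduced and detoxify heme and quinones. BACH1 competes for the same elements and represses many of these genes. In macrophages stimulated with LPS the program accompanies the burst of reactive oxygen species made by the NADPH oxidase. ATF4, a factor of the amino acid response, acts on some of the same genes, of which Slc7a11 is the best known.

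The promoter letters of the members are shown first, as a description. Whether a match has a part in the levels of a gene was not tested, and sequence outside the windows was not searched. RefSeq promoter windows (build GRCm38.p6, 250 bases before to 50 after a start) were at hand for 7 of the 10 members. On both strands, the core of the antioxidant response element, TGACNNNGC, was matched in 12.4% of all 32851 promoter windows. Among the members it was matched in Gclm, Srxn1 and Txnrd1. The Srxn1 match lies 28 bases after the start, within transcribed sequence. In the upstream stretches below, capitals mark the match, which reads on the reverse strand in both. The Gclm stretch is chr3:122245393-122245461 (plus strand), with the match beginning 134 bases before the start. The Txnrd1 stretch is chr10:82859084-82859152 (plus strand), with the match beginning 92 bases before the start of the second of its 3 windows, inside an intron of the longest transcript.
Gclm: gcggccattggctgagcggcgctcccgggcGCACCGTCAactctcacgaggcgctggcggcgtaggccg
Txnrd1: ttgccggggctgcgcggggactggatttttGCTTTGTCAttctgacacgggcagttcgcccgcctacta

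A core of the amino acid response element, TGATGNAA, was matched on either strand in 3.97% of the 32851 windows. Slc7a11 was the only one of the 7 members with a match, and it had 2, beginning 66 bases (forward) and 47 bases (reverse) before the start. The stretch is chr3:50443624-50443709 on the minus strand, printed 5′ to 3′ with both matches in capitals. The 2 patterns do not overlap each other, and the Nqo1, Osgin1 and Cat windows hold neither set of letters.
Slc7a11: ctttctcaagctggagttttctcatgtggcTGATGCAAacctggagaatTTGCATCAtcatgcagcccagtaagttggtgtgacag

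Between genes, levels are compared as CPM per kb of annotated exon sequence. In WT vehicle libraries Hmox1, which encodes the heme-degrading enzyme heme oxygenase 1, was the highest member at 421 ± 46.4 CPM per kb (SD, n = 3). Cat (catalase, 149 ± 10.3) and Srxn1 (sulfiredoxin, 87.4 ± 3.96) came next, followed by Txnrd1 (52.2 ± 0.975), Gsr (45.3 ± 1.42), Gclm (38.6 ± 4.55), Osgin1 (24.9 ± 2.97), Gclc (19.1 ± 0.901) and Nqo1 (7.23 ± 1.15). Slc7a11 was the lowest at 2.07 ± 0.252 CPM per kb. Of the neighbours in this order, only Gsr and Gclm had libraries that overlapped. Under LPS the order changed, with Txnrd1 (204 ± 32.9), Srxn1 (179.7 ± 40.7) and Gsr (172 ± 12.5) behind Hmox1 (1364 ± 161), and Slc7a11 at 102 ± 19.7 CPM per kb. Among these, Txnrd1 and Srxn1, and Srxn1 and Gsr, had overlapping libraries.

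1 replicate bears on all results in KO macrophages and is described before them. The 4 libraries of KO replicate 6 had the lowest level of the 6 KO replicates in 31 of 40 combinations of member and treatment. 7 of the 10 members were lowest there under all 4 treatments. Against the median of KO replicates 1 to 5, Gclc stood at 14.1 to 30.8%, Cat at 17.2 to 36.5% and Gclm at 20.9 to 42.9%. Slc7a11 stood at 36.4 to 60.2%, Txnrd1 at 46.4 to 63.3%, Gsr at 58.1 to 73.4% and Hmox1 at 61.1 to 94.4%. Srxn1 was not the lowest in any of the 4 treatments and stood at 88.0 to 113%.

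The same 4 libraries differed from the other KO libraries in markers as well. The 5 T cell markers summed to 2.19 to 3.48 CPM there, against 0.274 to 1.30 in KO replicates 1 to 5. The 9 neutrophil markers summed to 1111 to 1153 CPM (426 to 1153 in the others) and the 7 erythroid markers to 4.78 to 11.1 CPM (1.59 to 7.42). The macrophage markers summed to 11179 to 13312 CPM, within or just below the range of the others (11235 to 19983). These sums include Lyz2 and can hide differences in the other 6 macrophage markers, which were not split by replicate. Without Lyz2 the lowest KO CCM library had 2909 CPM, against a median of 4254 CPM in that group. Replicate 6 summed to 11179 CPM with Lyz2 in that group, where Lyz2 alone was no lower than 7695 CPM. Its other 6 macrophage markers with CCM therefore lay below that median. B cell markers (98.4 to 194 against 27.5 to 252) and fibroblast markers (315 to 603 against 302 to 1660) lay within the range of the others. Total counts there were between 13469262 and 22994133. The part of these differences in the low member levels was not tested. Each comparison of LPS or CCM within KO macrophages is given below with all 6 replicates and without replicate 6. Replicate 6 is singled out here by the levels of these same members, so fits without it are no independent test of them.

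**Figure D1:**
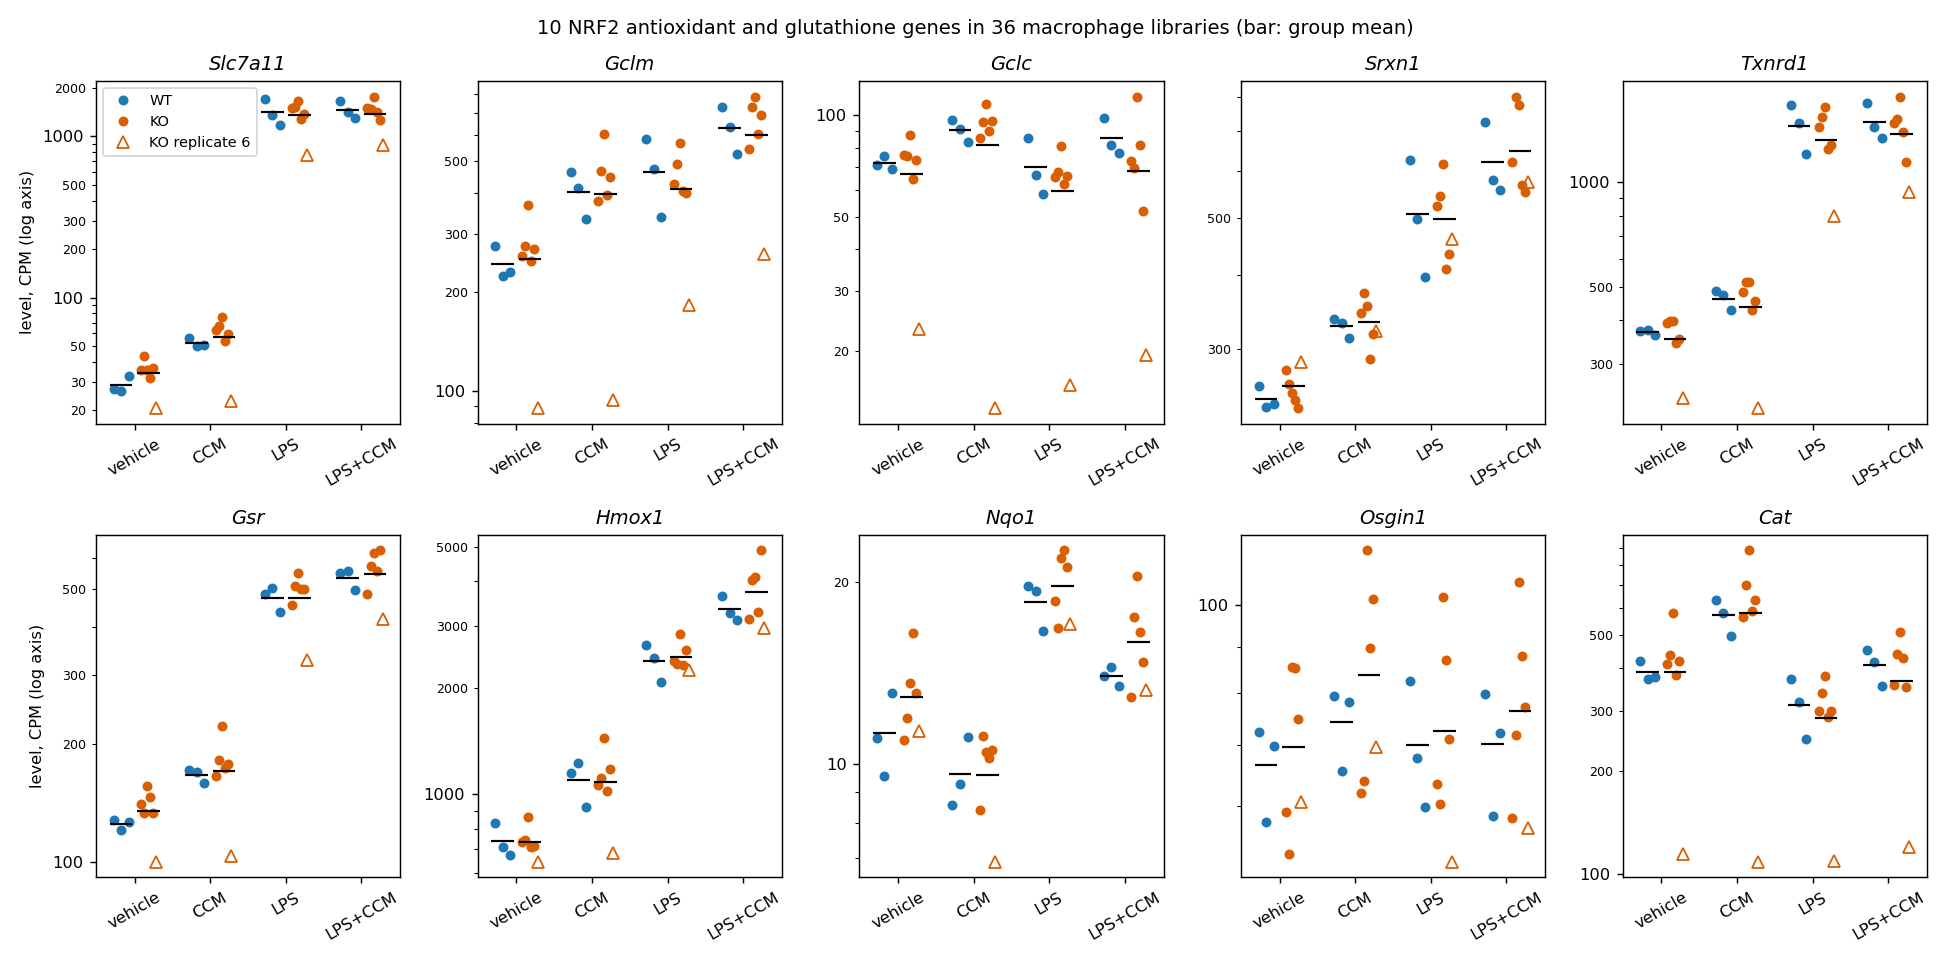
Level of each of the 10 genes in all 36 libraries, in CPM on a log axis that differs between panels, by treatment (x axis) and genotype (blue WT, orange KO). Points are libraries, open triangles are KO replicate 6 and bars are group means. Slc7a11 rises from 26.4 to 32.8 CPM in WT vehicle to between 1177 and 1717 CPM in WT LPS. Among the KO points the open triangles lie lowest for 7 genes in all 4 treatments.

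**Figure D2:**
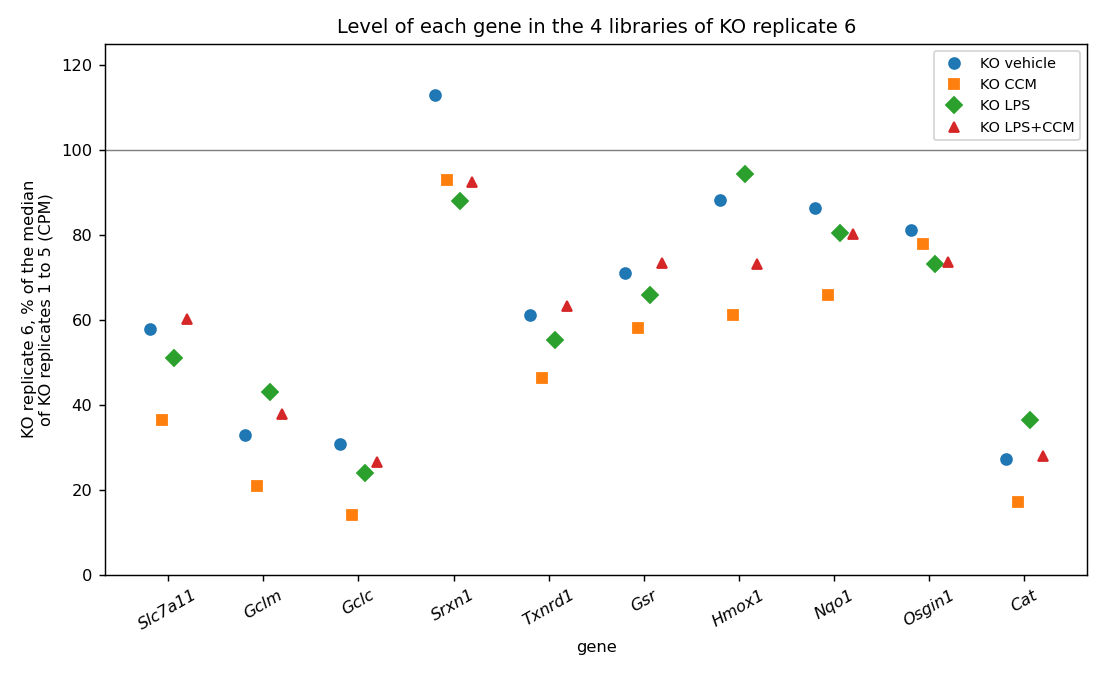
Level of each gene (x axis) in the 4 libraries of KO replicate 6, as a percentage of the median of KO replicates 1 to 5 under the same treatment (y axis, line at 100%). Gclc, Cat and Gclm lie between 14.1 and 42.9%, and Srxn1 between 88.0 and 113%.

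What LPS alone does to these genes was compared first. In WT macrophages 7 of the 10 members were called higher with LPS and 0 lower (adjusted p of at most 0.05 in edgeR's quasi-likelihood test over all genes), where 30.6% of 14501 genes were called higher and 32.4% lower. The median log2 fold change of the 10 was 1.02, beside -0.05 over all genes tested. In KO macrophages 6 were called higher and 0 lower, where 22.4% of 13648 genes were called higher and 24.7% lower. The direction of fitted change was the same in both genotypes for all 10 members. LPS also moved the distribution of counts as a whole: scaled by total counts alone, the median gene had a log2 change of -0.47 in WT and -0.44 in KO. On that scaling 7 members were again called higher in WT and Gclc, Osgin1 and Cat were called lower, where 17.6% of genes were called higher and 55.6% lower. In KO that scaling called 5 members higher and 0 lower, where 13.4% of genes were called higher and 41.8% lower. Leaving out KO replicate 6, 7 members were called higher and 1 (Cat) lower in KO, where 32.6% of genes were called higher and 36.9% lower, and with a block for the replicate number 7 higher and 2 lower, where 34.1% and 37.5% were. Vehicle and LPS libraries did not overlap for 7 members in WT and 6 in KO, all higher with LPS, as for 31.7% of genes tested in WT and 15.3% in KO. The neutrophil markers summed to 664 to 728 CPM in WT vehicle and 517 to 563 CPM in WT LPS libraries, and the macrophage markers to 16199 to 19015 CPM and 15814 to 16410 CPM. In KO the neutrophil markers had medians of 926 CPM with vehicle and 664 CPM with LPS, and the macrophage markers of 12846 and 11971 CPM. Their part in the changes with LPS was not tested.

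Cystine import and glutathione synthesis held the largest and, in WT, the smallest fitted change of the 10. Slc7a11 (chr3:49892526-50443614, minus strand, overlapped by 5 predicted genes that share none of its exon bases) encodes xCT, the light chain of the cystine-glutamate exchanger that brings in the limiting amino acid for glutathione. In WT vehicle libraries it was at 26.4, 27.1 and 32.8 CPM, and in WT LPS libraries at 1177, 1362 and 1717 CPM. The groups were far apart, with a 50.1-fold rise (log2 5.65 ± 0.16 SE, adjusted p = 9.52e-10 in edgeR). In KO macrophages the lowest, median and highest libraries were 20.7, 35.7 and 43.6 CPM with vehicle and 767, 1444 and 1651 CPM with LPS. The rise was 39.6-fold (log2 5.31 ± 0.22, adjusted p = 4.7e-10), and log2 5.32 ± 0.11 without replicate 6.

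Gclm and Gclc encode the modifier and the catalytic subunit of glutamate-cysteine ligase, the rate-limiting enzyme of glutathione synthesis. Gclm (chr3:122245557-122270732, plus strand) was at 224, 229 and 276 CPM in WT vehicle and at 337, 472 and 581 CPM in WT LPS libraries. These did not overlap, and Gclm rose 1.95-fold (log2 0.96 ± 0.16, adjusted p = 5.46e-04 in edgeR), a call that was lost in the fit over all 36 libraries (adjusted p = 0.0816). Gclm shares 296 exon bases (4.71%) with Gm17494 on the other strand. It also shares 244 (3.88%) with Gm6061 on the same strand, which had 0 counts. A small part of its counts therefore cannot be assigned, for Gm17494 if the counting ignored strand and for Gm6061 in either case. Gclc (chr9:77754535-77794485, plus strand) was at 69.1, 71.4 and 75.8 CPM with vehicle and 58.4, 66.4 and 85.7 CPM with LPS. Its groups overlapped, with a log2 change of -0.01 ± 0.12. The 2 subunits of the enzyme therefore had unlike values under LPS in WT, although the difference between the 2 genes was not tested.

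In KO macrophages Gclm was at 88.6, 263 and 366 CPM (lowest, median, highest) with vehicle and at 182, 414 and 567 CPM with LPS. The log2 change of 0.71 ± 0.29 missed the threshold (adjusted p = 0.061 in edgeR). Without KO replicate 6 it was 0.68 ± 0.12 and was called (adjusted p = 2.26e-04), and with a block for the replicate number 0.75 ± 0.06 and was called (adjusted p = 1.44e-07). In all, 5 of 12 alternatives called KO Gclm higher, DESeq2 among them. KO Gclc had a log2 change of -0.17 ± 0.34, which with the block was -0.19 ± 0.06 and called lower (adjusted p = 0.0141). It was -0.14 ± 0.09 without KO replicate 6 and not called (adjusted p = 0.172).

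The 3 members that reduce oxidized thiols were called higher in both genotypes. Txnrd1 (chr10:82833951-82897712, plus strand), the cytosolic thioredoxin reductase, rose from 362, 373 and 375 CPM to 1202, 1476 and 1665 CPM in WT, or 3.99-fold (SE 0.11 on the log2 scale, adjusted p = 9.66e-08 in edgeR). Gsr (chr8:33652523-33698163, plus strand), which reduces glutathione disulfide with NADPH, rose from 120.3, 126 and 128 CPM to 436, 486 and 502 CPM, or 3.88-fold (log2 1.96 ± 0.07). Srxn1 (chr2:152105516-152111376, plus strand), which restores over-oxidized peroxiredoxins, rose from 239, 241 and 259 CPM to 397, 497 and 626 CPM, or 2.10-fold (log2 1.07 ± 0.13). For each of the 3 genes all LPS libraries lay above all vehicle libraries. In KO the rises were 3.73-fold for Txnrd1, 3.50-fold for Gsr and 1.92-fold for Srxn1, again with no overlap between vehicle and LPS libraries. Without KO replicate 6 their log2 changes were 1.92, 1.82 and 0.98.

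Among the detoxifying enzymes, Hmox1 (chr8:75093621-75100589, plus strand) was at 674, 709.8 and 829 CPM in WT vehicle and at 2085, 2437 and 2641 CPM in WT LPS libraries. It rose 3.31-fold in WT (log2 1.72 ± 0.10, adjusted p = 1.74e-07 in edgeR) and 3.34-fold in KO (log2 1.74 ± 0.10), where the libraries went from 646 to 865 CPM up to between 2245 and 2836 CPM (log2 1.72 ± 0.08 without KO replicate 6). Nqo1 (chr8:107388225-107403206, minus strand), a quinone reductase often used as a reporter of NRF2 activity, was low in these cells. It was at 9.53, 11.0 and 13.1 CPM with vehicle and at 16.5, 19.3 and 19.7 CPM with LPS, a 1.67-fold rise (log2 0.74 ± 0.13, adjusted p = 6.49e-04). In KO Nqo1 rose 1.53-fold (log2 0.61 ± 0.12, and 0.61 ± 0.11 without replicate 6), a call that was lost on scaling by total counts alone (log2 0.23, adjusted p = 0.231).

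Osgin1 and Cat, like Gclc, were not called, though each was called lower in WT under at least 1 alternative. Osgin1 (chr8:119434124-119446256, plus strand), named as an oxidative stress-induced growth inhibitor, was at 57.6, 69.9 and 72.4 CPM with vehicle and 59.9, 67.8 and 82.5 CPM with LPS. Its groups overlapped, with a log2 change of 0.10 ± 0.12 in WT and 0.06 ± 0.17 in KO (0.10 ± 0.16 without replicate 6), and those of both full sets turned negative on scaling by total counts alone (-0.31 and -0.32). Cat (chr2:103453849-103485160, minus strand), which breaks down hydrogen peroxide, was at 371, 377 and 421 CPM with vehicle and at 248, 318 and 372 CPM with LPS. One LPS library lay above the lowest vehicle library, and the log2 change of -0.29 ± 0.12 missed the threshold (adjusted p = 0.0636 in edgeR). With the replicate number as a block Cat was called lower in WT (log2 -0.31, adjusted p = 0.0122 in edgeR). DESeq2 also called Cat lower there (log2 -0.26, adjusted p = 0.0416), and 5 of 12 alternatives did so. In KO its log2 change was -0.45 ± 0.33 and not called, and it was called lower without replicate 6 (-0.48 ± 0.11, adjusted p = 0.00191) and with the block (-0.40 ± 0.07, adjusted p = 1.14e-04).

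**Figure D3:**
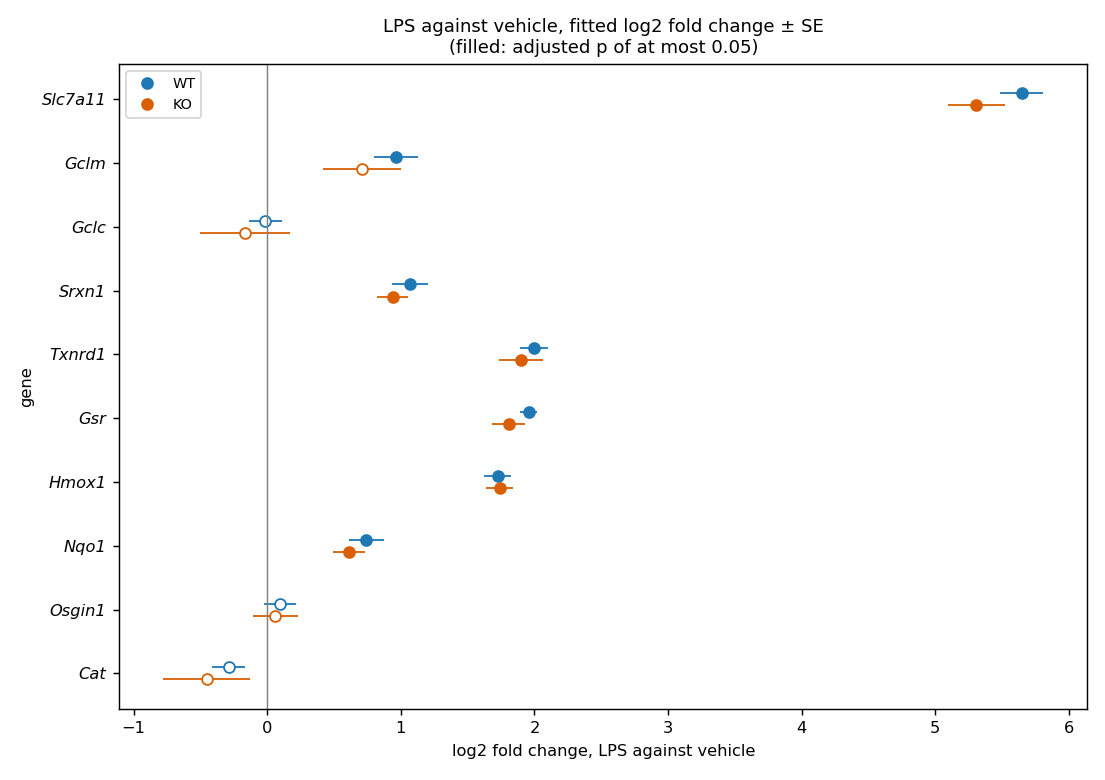
Fitted log2 fold change with LPS against vehicle (x axis) for each gene (y axis) in WT (blue, n = 3 per group) and KO (orange, n = 6 per group). Bars are 1 SE, and filled points passed an adjusted p of 0.05. Slc7a11 lies at 5.65 in WT and 5.31 in KO, while Gclc, Osgin1 and Cat lie between -0.45 and 0.10 and are open in both genotypes.

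CCM without LPS was compared next. In WT macrophages 3 members were called higher and 0 lower, where 0.0499% of 14024 genes (7 genes) were called higher and 0.00713% (1 gene) lower. Thus 3 of the 7 genes called higher were members. The members were chosen with earlier results of these data known, so shares beside those of all genes are no independent test of them. At an unadjusted p under 0.05 the number of members was 8, where 10% of genes had one, and 9 of the 10 had a fitted change above 0, with a median log2 fold change of 0.42 beside -0.01 over all genes. This comparison uses the same vehicle libraries as the comparison with LPS.

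Slc7a11 had the largest fitted change of the 10 with CCM in WT. It was at 26.4, 27.1 and 32.8 CPM with vehicle and at 50.2, 50.9 and 56.1 CPM with CCM, a 1.83-fold rise (log2 0.87 ± 0.09, adjusted p = 0.034 in edgeR). Gsr rose 1.35-fold, from 120.3, 126 and 128 CPM to 159, 170.1 and 172 CPM (log2 0.43 ± 0.05, adjusted p = 0.035). Srxn1 rose 1.34-fold, from 239, 241 and 259 CPM to 313, 332 and 336 CPM (log2 0.42 ± 0.05, adjusted p = 0.035). All 3 genes had CCM libraries that lay above every vehicle library. The calls were near the threshold: without WT vehicle replicate 3 Slc7a11 (adjusted p = 0.00415) and Gsr (0.0496) were called, and without any other of the 6 libraries no member was (0.0598 to 0.173 for Slc7a11, 0.092 to 0.246 for Gsr, and 0.0557 to 0.246 for Srxn1 over all 6). In the fit over all 36 libraries none was called.

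A further 5 members did not overlap between vehicle and CCM in WT and missed the threshold. With these, 8 members had all CCM libraries above all vehicle libraries, as did 7.11% of the genes tested. DESeq2 called the same 8 members higher, where 0.96% of 25725 genes were called. Gclm went from 224, 229 and 276 CPM to 333, 413 and 463 CPM (log2 0.74 ± 0.11, adjusted p = 0.0752 in edgeR). Cat went from 371, 377 and 421 CPM to 496, 581 and 635 CPM (log2 0.56 ± 0.08, adjusted p = 0.0752). Hmox1 was at 674 to 829 CPM with vehicle and at 922, 1153 and 1230.2 CPM with CCM (log2 0.59 ± 0.10, adjusted p = 0.0873). Txnrd1 (log2 0.33 ± 0.06, adjusted p = 0.0857) and Gclc (log2 0.33 ± 0.07, adjusted p = 0.13) had smaller values. Osgin1 (0.17 ± 0.10) and Nqo1 (-0.21 ± 0.15) overlapped between the groups, and Nqo1 was the only member with a fitted value below 0. The 9 neutrophil markers summed to 664 to 728 CPM with vehicle and 438 to 702 CPM with CCM in WT, and their part in these values was not tested. The macrophage markers summed to 17548 to 19356 CPM with CCM.

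In KO macrophages without LPS, 0 members were called with CCM, where 0% of 13799 genes were called. DESeq2 also called 0 of the 10, where it called 0.0871% of 27558 genes. In edgeR 5 members had an unadjusted p under 0.05, as did 2.41% of genes. The fitted log2 changes had the same sign as in WT for each gene. They were 0.74 ± 0.23 for Slc7a11, 0.65 ± 0.37 for Gclm, 0.55 ± 0.41 for Cat, 0.55 ± 0.13 for Hmox1, 0.35 ± 0.09 for Srxn1 and 0.33 ± 0.14 for Gsr. Txnrd1 (0.29 ± 0.18), Gclc (0.27 ± 0.40), Osgin1 (0.25 ± 0.18) and Nqo1 (-0.43 ± 0.13) completed the list. Hmox1 was at 646, 723 and 865 CPM (lowest, median, highest) with vehicle and at 681, 1089 and 1447 CPM with CCM. Srxn1 was the only member whose KO vehicle (238 to 285 CPM) and KO CCM (288 to 372 CPM) libraries did not overlap, where 0.203% of genes tested were higher with no overlap. In KO the neutrophil markers summed to 573 to 1153 CPM (median 926) with vehicle and 465 to 1153 CPM (median 696) with CCM. The macrophage markers had medians of 12846 and 12417 CPM. The part of these markers in the KO values was not tested.

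The KO result depended on the replicate structure. With the replicate number as a block, 9 of the 10 members were called with CCM in KO, 8 higher and Nqo1 lower, where 1.41% of genes were called higher and 1.7% lower. Gclc was the exception (log2 0.21 ± 0.11, adjusted p = 0.393). Slc7a11 had a log2 change of 0.72 ± 0.08 (adjusted p = 0.00128 with the block in edgeR), Gclm of 0.59 ± 0.07, Hmox1 of 0.53 ± 0.07 and Nqo1 of -0.42 ± 0.09. Without KO replicate 6 and with no block, 6 members were called higher (Slc7a11, Gclm, Hmox1, Srxn1, Gsr and Txnrd1), where 0.525% of genes were called higher and 0.489% lower. Leaving out any other single KO replicate called 0 members, where 0% of genes were called. Without replicate 6 Slc7a11 had a log2 change of 0.79 ± 0.09 (adjusted p = 0.00341 in edgeR) and Hmox1 of 0.61 ± 0.08 (adjusted p = 0.00841). Gclm was at 0.67 ± 0.13, Srxn1 at 0.38 ± 0.06, Gsr at 0.36 ± 0.07 and Txnrd1 at 0.33 ± 0.06. The 4 members not called were Cat (0.57 ± 0.13, adjusted p = 0.0562 in edgeR), Gclc (0.31 ± 0.08, adjusted p = 0.0818), Nqo1 (-0.40 ± 0.11, adjusted p = 0.122) and Osgin1 (0.25 ± 0.18).

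CCM on top of LPS gave another set of values. In WT macrophages given LPS, Hmox1 was called higher and Nqo1 lower with CCM, 2 of the 10 members, where 4.15% of 13579 genes were called higher and 7.78% lower. The members' median log2 fold change was 0.24 beside 0.01 over all genes. On scaling by total counts alone 3 members were called higher and 1 lower, where the split over all genes turned to 11.3% higher and 5.4% lower. Hmox1 went from 2085, 2437 and 2641 CPM with LPS to 3106, 3258 and 3639.5 CPM with LPS and CCM, a 1.40-fold rise (log2 0.49 ± 0.09, adjusted p = 0.00478 in edgeR). Nqo1 went the other way, from 16.5, 19.3 and 19.7 CPM to 13.4, 14.0 and 14.5 CPM, or 0.760-fold (log2 -0.40 ± 0.09, adjusted p = 0.0205). Neither gene had overlapping libraries, where 14.3% of genes tested were higher and 15.8% lower with no overlap. The neutrophil markers summed to 517 to 563 CPM with LPS and 442 to 525 CPM with both, and the macrophage markers to 15814 to 16410 CPM and 16531 to 16823 CPM, and their part was not tested. The Nqo1 call was lost without WT LPS replicate 1 (adjusted p = 0.0588) or 2 (0.0945) and without WT LPS+CCM replicate 2 (0.0584) or 3 (0.0677), while Hmox1 was called without each of the 6 libraries (adjusted p of at most 0.025). Both calls were lost in the fit over all 36 libraries (adjusted p = 0.552 for Hmox1 and 0.798 for Nqo1).

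The genes of glutathione synthesis and Cat had values above 0 that missed the threshold under LPS in WT. Cat was at 248, 318 and 372 CPM with LPS and at 355, 418 and 451 CPM with LPS and CCM (log2 0.39 ± 0.13, adjusted p = 0.0832 in edgeR). Gclm was at 337, 472 and 581 CPM and then at 524, 631 and 727 CPM (log2 0.45 ± 0.17, adjusted p = 0.128). Gsr (0.18 ± 0.06), Gclc (0.30 ± 0.13) and Srxn1 (0.30 ± 0.15) also overlapped between the groups. With the replicate number as a block 7 members were called, Nqo1 lower and Hmox1, Cat, Gclm, Srxn1, Gsr and Gclc higher, where 10.4% of genes were called higher and 13.3% lower. The blocked log2 values were 0.40 for Cat (adjusted p = 1.03e-06 in edgeR), 0.47 for Gclm (5.72e-07) and 0.18 for Gsr (3.66e-04).

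Slc7a11 and Txnrd1 were not among the genes called by CCM under LPS with either fit. Slc7a11 was at 1177, 1362 and 1717 CPM with LPS and at 1305, 1417 and 1669.7 CPM with LPS and CCM, with a log2 change of 0.05 ± 0.13. Txnrd1 was at 1202, 1476 and 1665 CPM and at 1337, 1446 and 1691 CPM, with a log2 change of 0.05 ± 0.11. Osgin1 had a log2 change of 0.01 ± 0.13. For these 3 genes the groups overlapped nearly throughout.

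In KO macrophages given LPS, 0 members were called with CCM in edgeR, where 0.112% of 13386 genes were called, and 1 (Hmox1) in DESeq2, where 0.667% of 26968 genes were called. In edgeR 3 members had an unadjusted p under 0.05, as did 7.99% of genes. Hmox1 was at 2245, 2359.8 and 2836 CPM (lowest, median, highest) with LPS and at 2952, 3661 and 4899.9 CPM with both, with no overlap (log2 0.58 ± 0.14, adjusted p = 0.121 in edgeR), where 0.702% of genes tested were higher with no overlap. Without KO replicate 6 Hmox1 was called (log2 0.64 ± 0.13, adjusted p = 0.0351), and no other member was, where 1.27% of genes were called. Without it Gclm was at 0.54 ± 0.13, Srxn1 at 0.38 ± 0.14, Cat at 0.37 ± 0.12, Gsr at 0.18 ± 0.09, Gclc at 0.17 ± 0.17 and Nqo1 at -0.31 ± 0.14, with Osgin1 (0.05), Txnrd1 (0.02) and Slc7a11 (0.01) nearest to 0. With all 6 replicates the other fitted log2 changes were 0.52 ± 0.27 for Gclm, 0.35 ± 0.14 for Srxn1, 0.34 ± 0.31 for Cat, 0.18 ± 0.13 for Gsr, 0.16 ± 0.38 for Gclc and -0.34 ± 0.14 for Nqo1. Slc7a11 (0.01 ± 0.18), Txnrd1 (0.02 ± 0.18) and Osgin1 (0.04 ± 0.19) were near 0 here too. The neutrophil markers had medians of 664 CPM with LPS and 687 CPM with both in KO, and the macrophage markers of 11971 and 12201 CPM.

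**Figure D4:**
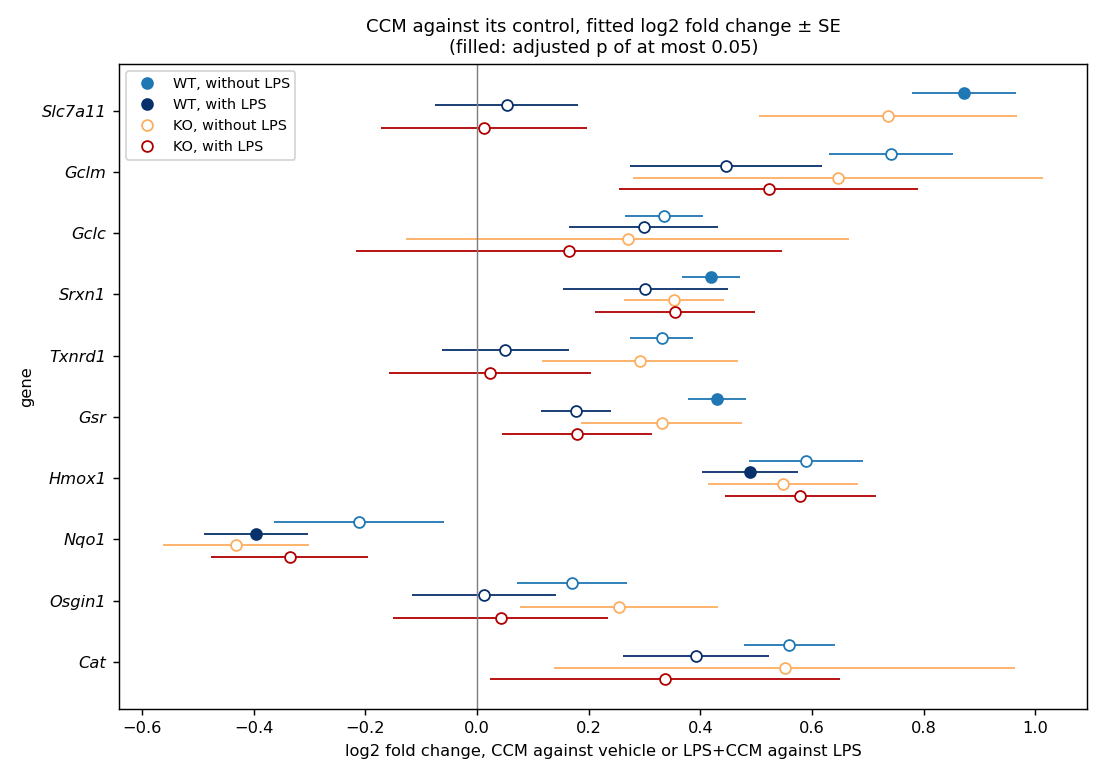
Fitted log2 fold change with CCM (x axis) for each gene (y axis), against vehicle without LPS and against LPS alone with LPS, in WT (blues, n = 3 per group) and KO (orange and red, n = 6 per group). Bars are 1 SE and filled points passed an adjusted p of 0.05 in the fit with no block. Slc7a11 lies at 0.87 and 0.74 without LPS and at 0.05 and 0.01 with LPS, Hmox1 between 0.49 and 0.59 in all 4, and Nqo1 below 0 in all 4.

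Whether CCM acted differently with and without LPS was tested as an interaction. In the 12 WT libraries 1 member, Slc7a11, was called, where 2.09% of 14747 genes were called. Its log2 response to CCM was lower by 0.83 ± 0.18 under LPS (log2 -0.83, adjusted p = 0.0335 in edgeR). In CPM, CCM went with 28.8 ± 3.51 to 52.4 ± 3.21 without LPS and with 1419 ± 274 to 1464 ± 187 under LPS (mean ± SD, n = 3). The call was lost without WT replicate 2 (adjusted p = 0.393) or 3 (0.0687), on scaling by total counts alone (log2 -0.74, adjusted p = 0.0551), and in the fit over all 36 libraries. All 10 members had an interaction value below 0 in WT, from -0.05 for Gclc to -0.83 for Slc7a11, with -0.30 ± 0.15 for Txnrd1 and -0.27 ± 0.09 for Gsr. The members' median was -0.19, beside 0.02 over all genes, and the share of all genes below 0 was not counted. At an unadjusted p under 0.05 there were 2 members, where 14% of genes had one. On total counts alone, and without WT replicate 1 or 2, 1 member lay above 0. In the 24 KO libraries no member was called in edgeR, where 0.00685% of 14588 genes were called, DESeq2 also called 0, and Slc7a11 alone had an unadjusted p under 0.05, as did 3.67% of genes. Its KO interaction was -0.71 ± 0.30, and without KO replicate 6 it was -0.78 and called (adjusted p = 0.0455), where 0.0685% of genes were called.

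Genotype was compared last. Between KO and WT, 0 members were called with vehicle (0% of 14385 genes) and 0 with LPS (0% of 13794 genes). Of the interactions with genotype, 0 were called for CCM without LPS (0% of 14905 genes), for CCM under LPS (0% of 14546 genes) and for LPS (0% of 15093 genes). DESeq2 called no member in these 5 comparisons either, and no member had an unadjusted p under 0.05 in edgeR with no block and all replicates. For LPS 1 member had one with the replicate number as a block, as did 2.15% of genes. Between KO and WT with vehicle, 2 members had one without KO replicate 6, as did 2.86% of genes. These values do not show that the genotypes act alike, because the 95% intervals with no block and all replicates are wide. For Slc7a11 the difference between genotypes in the response to CCM without LPS was log2 -0.15 (95% interval -0.88 to 0.58), and in the response to LPS -0.32 (-0.94 to 0.29). For Hmox1 these were -0.05 (-0.50 to 0.40) and 0.04 (-0.30 to 0.37). Cat had the widest interval for CCM, -1.32 to 1.28. Its difference with the replicate number as a block was -0.08 ± 0.12 for CCM without LPS. For LPS it was -0.07 ± 0.12 with the block and -0.14 ± 0.50 without the block. Without KO replicate 6 the differences for CCM without LPS were -0.08 ± 0.15 for Slc7a11, 0.02 ± 0.15 for Hmox1 and 0.01 ± 0.19 for Cat. With vehicle alone, KO libraries without replicate 6 were above WT by a log2 of 0.37 ± 0.11 for Slc7a11 and 0.21 ± 0.06 for Gsr, which did not pass the adjustment (adjusted p = 1 in edgeR). The macrophage markers summed to a median of 17505 CPM in WT vehicle and 12846 CPM in KO vehicle libraries. Lyz2 was at medians of 13274 and 8472 CPM there, and the 6 markers other than Lyz2 summed to 4230 and 4223 CPM. The part of these markers in the genotype values was not tested. In bulk libraries fewer cells of a type and less RNA per cell cannot be told apart, and Lyz2 itself carries the Cre insertion in KO alone.

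The regulators of the program moved with LPS as well. Of 10 genes that encode NRF2, its partners and its inhibitors, 9 were called higher and 1 lower in WT, and 7 higher and 0 lower in KO, beside the 30.6% and 32.4% of all genes in WT and the 22.4% and 24.7% in KO. In KO without replicate 6, 9 were called higher and 1 lower, where 32.6% and 36.9% of all genes were. Nfe2l2 rose 1.91-fold in WT, from 207 ± 16.3 to 386 ± 15.9 CPM (log2 0.93 ± 0.06, adjusted p = 7.62e-07 in edgeR), and 1.91-fold in KO. Keap1 rose 2.35-fold in WT (log2 1.23 ± 0.07) and 2.38-fold in KO. Bach1, the repressor, fell from 118 ± 9.26 to 76.1 ± 6.66 CPM in WT (log2 -0.61 ± 0.08, adjusted p = 1.28e-04). In KO, where Bach1 was also low in replicate 6 (31.4 CPM with vehicle), its log2 change was -0.75 ± 0.34 and not called. Without replicate 6 it was -0.77 ± 0.10 and called lower (adjusted p = 8.69e-06 in edgeR). Nfe2l1, a relative of NRF2 that acts on proteasome genes, rose 2.79-fold in WT and 2.71-fold in KO. Sqstm1 (p62, which sequesters KEAP1) rose 3.82-fold in KO, and Maff 3.87-fold.

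With CCM no regulator was called in unstimulated cells of either genotype or in KO macrophages given LPS, nor in KO without replicate 6. With the replicate number as a block Sqstm1 was called higher in KO without LPS. Under LPS in WT, Maff (log2 -0.35 ± 0.09, adjusted p = 0.0259 in edgeR) and Mafk (log2 -0.21 ± 0.05, adjusted p = 0.0352), which encode small MAF partners, were called lower, 2 of the 10 where 7.78% of all genes were. Nfe2l2 had log2 values of -0.05 ± 0.07 with CCM alone and -0.20 ± 0.06 (adjusted p = 0.0649) with CCM under LPS. Keap1 had -0.09 ± 0.08 and -0.14 ± 0.06, and Bach1 0.19 ± 0.08 and 0.11 ± 0.07.

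The wider antioxidant lists were mixed under LPS in WT, and their counts stand beside 30.6% of all genes called higher and 32.4% lower (22.4% and 24.7% in KO). Of 22 further glutathione enzymes tested, 6 were called higher and 12 lower (5 and 8 in KO), with Ggct (γ-glutamylcyclotransferase) up 6.40-fold, Glrx (glutaredoxin 1) up 3.15-fold and Esd up 2.88-fold. Of 15 thioredoxin and peroxiredoxin genes, 5 were called higher and 5 lower (4 and 3 in KO). Prdx5, a peroxiredoxin, rose 9.17-fold and Txn1 (thioredoxin) 2.32-fold, while Sesn1 (sestrin 1) fell to 0.115-fold. Of 10 genes of NADPH supply, 4 were called higher and 4 lower (4 and 2 in KO). Nadk (NAD kinase) rose 2.44-fold and Mthfd2 3.35-fold, and Idh1 (cytosolic isocitrate dehydrogenase) fell to 0.340-fold.

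Among 9 heme and iron genes, 4 were called higher and 4 lower in WT (4 and 3 in KO). Fth1 (ferritin heavy chain) rose 2.06-fold, whereas Slc40a1 (the iron exporter ferroportin) fell to 0.283-fold and Blvra (biliverdin reductase A) to 0.583-fold. Sod2, the mitochondrial superoxide dismutase, rose 32.2-fold and Sod3 2.92-fold, and Sod1 fell to 0.672-fold. In KO, Sod2 rose 30.3-fold. Of 7 NADPH oxidase genes tested, which make superoxide, 6 were called higher and 0 lower (4 of 6 and 0 in KO), with Cybb up 5.54-fold, Rac2 up 2.91-fold and Ncf4 up 2.10-fold.

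Of 17 other known NRF2 targets, 5 were called higher and 8 lower with LPS in WT (4 and 6 in KO). Marco, a scavenger receptor, rose 388-fold, Abcc1 (a glutathione-conjugate exporter) 3.95-fold and Slc3a2 2.89-fold. Slc3a2 encodes the heavy chain that pairs with the Slc7a11 product. Of 14 ATF4 targets, 7 were called higher and 1 lower in WT (5 and 1 in KO), with Asns (asparagine synthetase) up 2.72-fold and Phgdh (serine synthesis) up 1.97-fold. Their median log2 change was 0.28, beside 5.65 for Slc7a11. Over the 9 lists together, regulators included, 46 of 104 genes were called higher and 36 lower in WT. In KO 37 of 103 were called higher and 23 lower, and without replicate 6, a setting chosen after seeing the data, 49 of 104 higher and 36 lower.

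With no block, none of the genes of these lists was called in edgeR with CCM in unstimulated macrophages or in KO macrophages when all libraries were used. Other settings, chosen for these lists after seeing the data, called some. Without LPS in WT, DESeq2 called 10 of 105 list genes higher and 3 lower, where 0.536% and 0.424% of all genes were. Among the list genes called were Slc40a1, Prdx6, Idh1 and Slc3a2. In KO without LPS, leaving out replicate 6 called 7 of 103 higher and 0 lower (Pgd, Slc3a2, Esd, Prdx6, Ptgr1, Abcc1 and Sesn2), where 0.525% of all genes were called higher. Of these, Slc3a2 had a log2 change of 0.30 ± 0.05 (adjusted p = 0.022 in edgeR) and Prdx6 of 0.47 ± 0.09 (adjusted p = 0.0376). With the replicate number as a block 16 of 103 were called higher and 3 lower there, where 1.41% and 1.7% of all genes were. In KO under LPS, 3 of 104 were called higher without replicate 6 (Akr1b8, Gsta3 and Cbr3) and 0 lower, where 0.313% and 0.953% of all genes were.

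Under LPS in WT, CCM went with 5 of the 17 other NRF2 targets called higher and 0 lower, where 4.15% of all genes were called higher and 7.78% lower. Cbr3 (1.61-fold, log2 0.68 ± 0.12, adjusted p = 0.00551 in edgeR) and Cbr1 (1.44-fold) encode carbonyl reductases, and Ptgr1 (1.45-fold) a prostaglandin reductase. Of the thioredoxin and peroxiredoxin genes 2 were called higher and 1 lower, with Sesn1 up 1.54-fold, Prdx6 up 1.18-fold and Txnip (thioredoxin-interacting protein) at 0.728-fold. Idh1 rose 1.57-fold (log2 0.65 ± 0.06, adjusted p = 1.38e-04), and Slc48a1, a heme transporter, 1.25-fold. Of the further glutathione enzymes 0 of 21 were called. Of the ATF4 targets 0 were called higher and 2 lower (Ddit4 at 0.650-fold and Slc7a5 at 0.845-fold), and of the NADPH oxidase genes 0 higher and 1 lower. 0 of the 3 superoxide dismutases were called. Over all 9 lists 9 of 103 genes were called higher and 6 lower. A block for the number made these 35 higher and 16 lower, where 10.4% and 13.3% of all genes were.

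**Figure D5:**
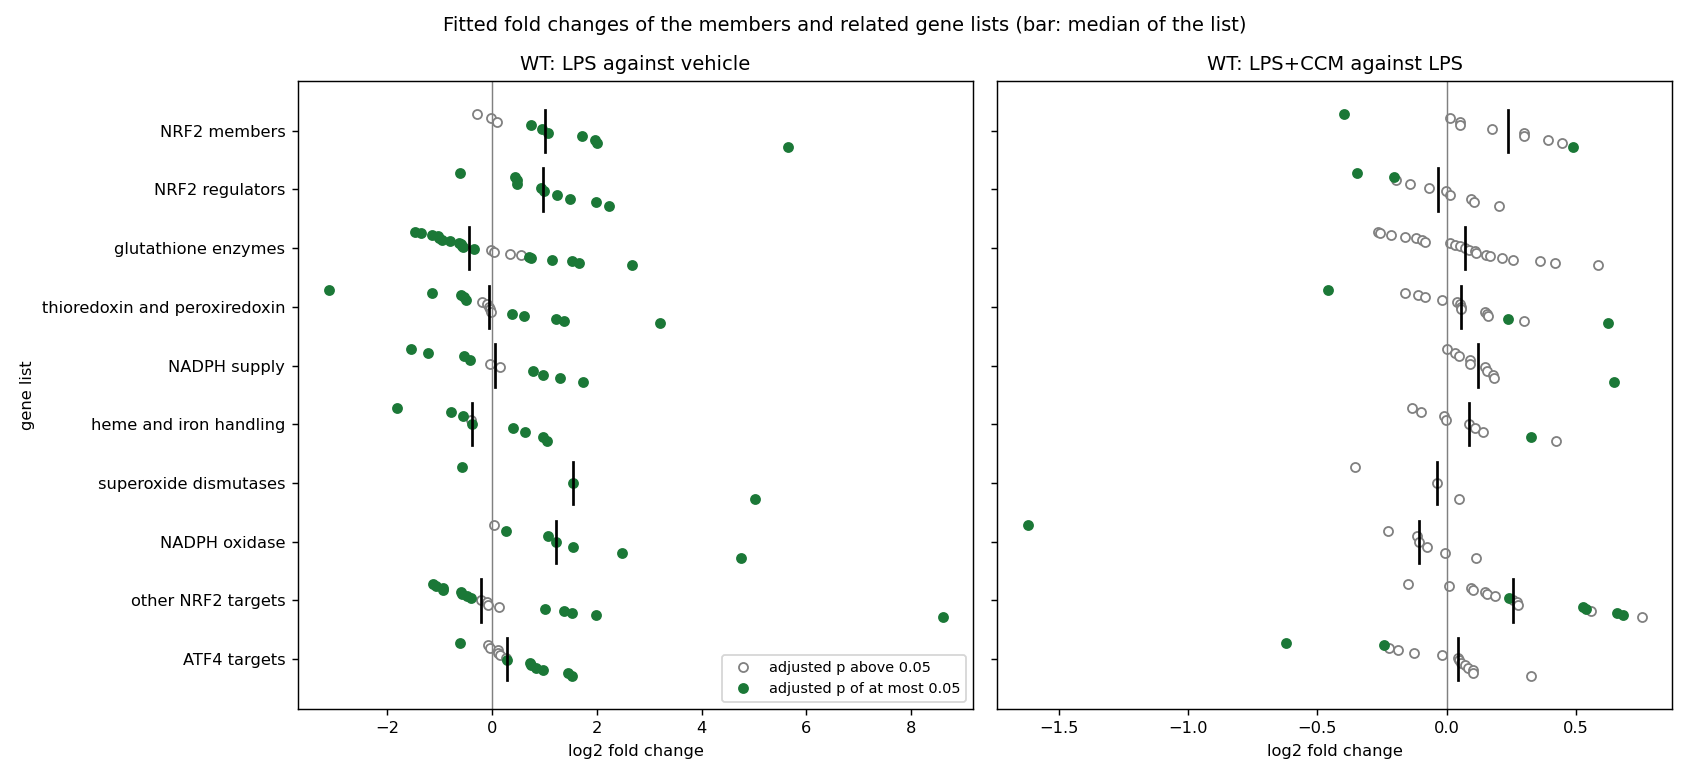
Fitted log2 fold changes (x axis) of the 10 members and of 9 related gene lists (y axis) in WT macrophages, with LPS against vehicle (left) and LPS+CCM against LPS (right). Each point is a gene, filled where it passed an adjusted p of 0.05, and bars are list medians. The members' median is 1.02 on the left and 0.24 on the right, and the x axes differ.

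Over the 36 libraries the members fell into patterns that are given as description only, since the libraries share treatments and genotypes. They include KO replicate 6, where Gclc, Cat and Gclm stood at 14.1 to 42.9% of the median of the other KO replicates. Correlations without these libraries were not computed, and the weight of replicate 6 in the values below was not tested. Slc7a11, Txnrd1, Gsr, Hmox1 and Srxn1 had pairwise Pearson correlations of log2 CPM from 0.913 to 0.988. Cat and Gclc correlated at 0.937 with each other and at -0.17 and 0.03 with Slc7a11. Gclm lay between, at 0.63 with Slc7a11 and 0.71 with Gclc. Of 11179 expressed genes, those most like Slc7a11 were Tnfrsf1b (r = 0.997), Stard5, Dram1, Tma16 and Nfe2l1 (r = 0.993). Those most like Hmox1 were Gsr (r = 0.978), Mafg (r = 0.976), Slc3a2 (r = 0.975), Gdpd1 and Dcaf12. Cat was most like Tmem43 (r = 0.969), Nck2, Gpcpd1, Hipk1 and Tmem164, and Gclm most like Tcp11l1 (r = 0.914), Zscan29, Tbcel, Msl2 and Kctd3.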

How the data were processed

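RNA-seq was examined for BMDMs of WT (3 replicates) and KO (6 replicates) mice under 4 treatments, 36 libraries in 8 groups. The authors trimmed reads (fastp), aligned them to mm10 (HISAT2 2.0.5) and counted them per gene (featureCounts 1.5.0-p3), per the submitters' processing notes, and the deposited values are raw counts for 54532 genes. A strand setting of the counting is not given in the sources used here. 0 count columns were left out.

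From the counts, every comparison had a fit of its own, on its groups only, in edgeR 4.0.16 (R 4.3.3) with filterByExpr, TMM scaling and the quasi-likelihood test, with no block, two-sided, with Benjamini-Hochberg adjustment over all genes tested at 0.05. SE is the log2 fold change divided by the square root of the test's F. CPM use TMM factors over all 36 libraries, log2 CPM a prior count of 2, and CPM per kb the deposited gene length. Fold changes are fitted values. Positions follow GENCODE (GRCm38), and promoter letters are from RefSeq. The scripts were tested on simulated data.

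The members and lists were chosen with earlier results of these data known. Named are all members, Nfe2l2, Keap1, Bach1, Arntl, per list and comparison up to 3 called genes with the smallest p and a mean log2 CPM of at least 1, and the 5 genes most correlated with Slc7a11, Gclm, Hmox1 and Cat. Sqstm1 and Maff fall under this rule in KO.

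Whether libraries of the same number deviate together from their group means was checked by correlation. Each was over 0.1 for LPS in WT (0.114 to 0.224) and KO (0.345 to 0.907), CCM in KO (0.435 to 0.923), CCM under LPS in WT (0.21 to 0.451) and genotype by LPS. For these the fit with the number as a block counts as a paired fit. Differently numbered KO libraries had median correlations of 0.285 and 0.356, so the limit of 0.1 alone does not mark pairs there. In the other comparisons at least 1 correlation was under it, which does not show that their libraries are unpaired.

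Alternatives were RLE size factors, total counts alone, no filter beyond 1 count, DESeq2 1.42.0, the block, all 36 libraries in 1 fit, and leaving out each library or replicate. Related lists without KO replicate 6, with the block and in DESeq2, and the macrophage markers without Lyz2, were added after seeing the data. Totals were 13469262 to 28288923 counts. Over all genes, libraries of a group differed by more than counting noise (the lowest chi-square was 4.34 per degree of freedom), a value over all genes that need not hold for a single one.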

Additional observations from a re-analysis of the deposited data

Results flagged for a closer look

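Of 40 combinations of gene and KO treatment, 6 had a library that stood far from the other 5, where chance at 1 in 20 gives 2, and all 6 were KO replicate 6. Gclc was at 23.2 CPM there with vehicle, 13.5 CPM with CCM and 15.8 CPM with LPS. Txnrd1 was at 239.8 CPM with vehicle and 224 CPM with CCM, and Cat at 109 CPM with LPS. The 40 combinations share libraries and are not independent.

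For 2 genes among the members and the named genes of the related lists, the response of WT macrophages to CCM differed with and without LPS by the interaction test in edgeR, which called 308 of 14747 genes in all (2.09%). The log2 interaction was -0.83 ± 0.18 (SE, adjusted p = 0.0335) for Slc7a11. It was 0.85 ± 0.12 (adjusted p = 0.00326) for Sesn1, a gene of the thioredoxin and peroxiredoxin list. The Slc7a11 call was lost without WT replicate 2 (adjusted p = 0.393 in edgeR) or 3 (0.0687), on total counts alone (0.0551) and in the fit over all 36 libraries. The Sesn1 call was lost without WT replicate 2 (adjusted p = 0.211 in edgeR) and in the fit over all 36 libraries. For each gene the value kept its sign in all 9 alternatives run.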

How the results depend on the processing

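With LPS, 6 to 10 members were called in WT over all alternatives (6 with all 36 libraries in 1 fit, where 35.9% of genes were called, and 10 on total counts alone, where 73.2% were), and 5 to 9 in KO (5 on total counts alone, where 55.2% were called, and 9 with the replicate block, where 71.6% were). With 1 library or replicate left out these were 7 to 8 and 6 to 8. For CCM without LPS in WT the 3 members called (0.057% of genes) became 8 with no filter beyond 1 count (1.47%), 8 in DESeq2 (0.96%), 8 with the replicate block (1.82%), 0 with all 36 libraries in 1 fit (0%) and 0 to 2 with 1 library left out (0 to 0.112%). In KO the 0 members became 9 with the block (3.11%) and 0 to 6 with 1 replicate left out (6 without replicate 6, where 1.01% were called). For CCM under LPS in WT the 2 members (11.9%) became 4 on total counts alone (16.7%), 7 with no filter (8.3%), 7 with the block (23.7%), 0 with all 36 libraries (0.108%) and 1 to 5 with 1 library left out (5 without WT LPS replicate 1, where 9.7% were called). In KO the 0 became 1 in DESeq2 (0.667%), 4 with the block (5.8%), 1 with all 36 libraries (1.81%) and 0 to 1 with 1 replicate left out (1 without replicate 6). For LPS by CCM in WT the 1 member (2.09%) became 0 on total counts (2.35%), 2 in DESeq2 (2.5%), 0 with all 36 libraries (0%) and 0 to 1 with 1 replicate left out, and in KO the 0 became 1 with the block (0.555%) and 0 to 1. The same-numbered libraries of CCM without LPS in WT, CCM under LPS in KO and both LPS by CCM tests did not all correlate over 0.1. The block is therefore not counted as a paired fit there. These libraries also enter comparisons where it is, so the rule does not show that they are unpaired. The cause of the differences between alternatives was not tested. All genotype comparisons gave 0 members under every alternative.

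Some values of single members took the opposite sign. Osgin1 with LPS was at a log2 of -0.31 in WT and -0.32 in KO on total counts alone, and between -0.0308 (without WT LPS replicate 1) and 0.204 in WT with 1 library left out. Txnrd1 with CCM under LPS in WT lay between -0.0681 (without WT LPS replicate 3) and 0.167, and Srxn1 between KO and WT under LPS from -0.153 to 0.18 (without WT replicate 1). The cause was not tested. The lowest count of a member in a library was 99, for Nqo1, so that counting noise weighs more on Nqo1 than on the other members.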
